A study of Mus musculus with 12 samples.

Results

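The genes of epithelial cell-cell junctions were described in airway organoids after femtosecond laser ablation and in untreated organoids. Members were taken by name from the deposited expression table: every numbered claudin, every desmoglein and desmocollin, plakophilins 1 to 4, the zonula occludens (Tjp) genes, and Dsp, Jup, Perp, Ppl, Evpl, Ocln, F11r, Cdh1, Cdh3, Ctnna1 and Ctnnd1. This gave 50 genes of 55401 listed. By role, 23 were claudins, 5 were other tight junction genes, 9 were desmosomal cadherins, 9 encoded desmosomal plaque, plakin or membrane proteins, and 4 belonged to the adherens junction.

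Airway organoids were grown from epithelial cells of the digested lungs of adult C57BL/6J wild-type mice, in basement membrane extract and conditioned medium. In all groups the cells carried a lentiviral histone 2A-mCherry reporter driven by the p63 promoter. For each of the 6 ablation dishes, a femtosecond laser removed 10 neighbouring cells from each of 45 organoids, in unsupplemented FluoroBrite DMEM, and RNA was collected 4.5 h later. The 6 control dishes, also of 45 organoids, went through the same steps with no cell removed. Dishes were numbered 1, 3, 4, 5, 6 and 7 in both groups, and dishes of the same number shared passage, culture day and date. The titles of controls 4, 6 and 7 contain the word ablation, while their treatment label reads control, and they were used as controls. By their titles, numbers 1 and 3 were of passage P2+14, 4 and 5 of P2+15, and 6 and 7 of P2+16. Within each passage the culture day and date count back to the same day. The 6 numbers are therefore not shown to be independent cultures. The labels do not say whether they came from separate animals, so p-values measure the spread between dishes.

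Each library averaged all cells of its dish, most of which were not next to a removed cell. In such bulk RNA, fewer cells of a type and less RNA per cell cannot be told apart. Whole read counts could be recovered for 9 of the 12 libraries and were 23631212 to 29775699 per library. Values below are the authors' normalized counts, which are read counts divided by one size factor per library. Levels of different genes are compared per kilobase of exon. Tests used limma on log2(normalized count + 1) for 13792 genes that reached 10 normalized counts in 6 or more libraries. A first model held the library set (2 runs of library numbers, with pairs 1, 3 and 5 in set 1 and pairs 4, 6 and 7 in set 2), and a second, paired model held the dish number instead.

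Epithelial cells are joined by 3 kinds of contact. Tight junctions seal the space between cells: claudins form barriers or pores for ions, occludin and JAM-A (F11r) span the membrane with them, and the zonula occludens proteins (Tjp genes) tie them to actin. In adherens junctions, classical cadherins bind actin through catenins. In desmosomes, desmogleins and desmocollins are linked to keratin filaments by plakoglobin, plakophilins and desmoplakin, which gives stratified and pseudostratified epithelia their resistance to strain.

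Claudin genes spanned the whole range from the leading junction genes to no reads at all, and 2 neighbours in the genome differed widely in level. Cldn4, a claudin known to limit sodium passage, and Cldn3, another barrier claudin, lie 39280 bases apart on mouse chromosome 5 (GRCm38.p6) and are read from opposite strands. Cldn4 (chr5:134945119-134946934, minus strand) averaged 5637 ± 1236 normalized counts per kb (SD, n = 12 dishes), and Cldn3 averaged 1.89. To show where this pair is transcribed from, the 250 bases before each start in RefSeq are given 5′ to 3′ on the strand of the gene. Capitals mark matches on either strand to 2 motifs that do not overlap here, the GC box (GGGCGG, on the other strand CCGCCC) bound by Sp-type factors and the E box (CAGGTG, on the other strand CACCTG) bound by Snail-type repressors.
Cldn4 (chr5:134946935-134947184, minus strand): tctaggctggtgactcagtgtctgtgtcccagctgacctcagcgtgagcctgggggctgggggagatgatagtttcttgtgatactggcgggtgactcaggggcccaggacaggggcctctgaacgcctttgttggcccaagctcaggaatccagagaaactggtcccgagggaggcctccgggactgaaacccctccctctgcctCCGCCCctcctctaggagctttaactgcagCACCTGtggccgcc
Cldn3 (chr5:134985964-134986213, plus strand): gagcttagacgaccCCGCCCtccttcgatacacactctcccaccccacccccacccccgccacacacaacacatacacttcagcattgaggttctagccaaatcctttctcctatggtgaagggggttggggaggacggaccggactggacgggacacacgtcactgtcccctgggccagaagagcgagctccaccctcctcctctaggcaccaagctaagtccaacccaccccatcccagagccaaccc
The Cldn4 window held the GC box 44 bases and the E box 14 bases before the start. The Cldn3 window held a GC box 236 bases before the start and no CAGGTG. Of 32851 RefSeq promoter windows, 32.7% held the GC box and 17.2% the E box. Of the 50 genes, 27 had a window in the promoter table.

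The level of each gene was described first, over all 12 dishes. Of the 50 genes, 30 passed the minimum of 10 normalized counts in 6 libraries. The highest level was that of Perp, a p63 target that encodes a tetraspan protein of desmosomes, with 27116 ± 4167 normalized counts per kb (SD, n = 12), rank 29 among the 13792 tested genes. It was followed by a group of closely spaced genes from every kind of junction. These were desmoplakin (Dsp, 5685 ± 566 per kb), Cldn4, desmoglein 3 (Dsg3, 5453 ± 356), desmocollin 2 (Dsc2, 5066 ± 487), plakophilin 1 (Pkp1, 4585 ± 504), JAM-A (F11r, 4431 ± 455), E-cadherin (Cdh1, 3472 ± 240), alpha-catenin (Ctnna1, 3024 ± 155) and plakoglobin (Jup, 2977 ± 425).

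**Figure D1:**
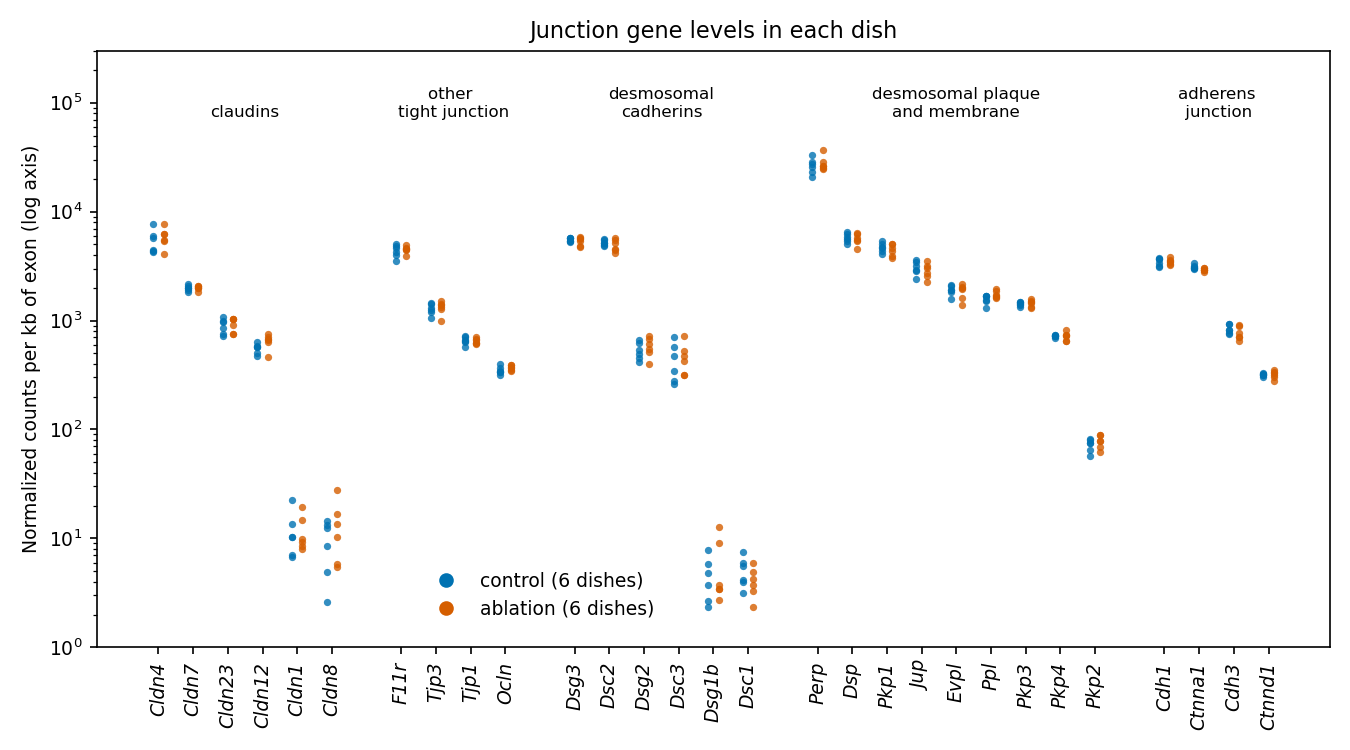
Normalized counts per kb of exon (log axis) of tested junction genes by role, with one point per dish, 6 control dishes in blue and 6 ablation dishes in orange. Perp lies above all others, Cldn1, Cldn8, Dsg1b and Dsc1 lie lowest, and the 2 groups overlap for every gene shown.

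Neighbours in this order were mostly not separated. Of the 29 neighbouring pairs, 25 had ranges over dishes that overlapped, and 7 kept one order in all 12 dishes. Ranges did not overlap between Perp and Dsp, between Jup and Cldn7, between Ctnnd1 and Pkp2, and between Pkp2 and Cldn1. Dsp stood above Cldn4 in 5 of 12 dishes and Cldn4 above Dsg3 in 6 of 12, so the order at this level is not settled by the dishes.

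Among the claudins, 4 had clear levels and 2 were faint. Cldn7, a claudin of lateral membranes, averaged 2000 ± 104 normalized counts per kb (SD, n = 12), Cldn23 averaged 907 ± 133, and Cldn12, a claudin that lacks the usual PDZ-binding end, averaged 602 ± 91. The lower tested members were Cldn1, at 11.7 per kb, and Cldn8, at 11.3 per kb. Cldn1 is a main barrier claudin of the epidermis, and Cldn8 is known from the distal nephron. Cldn1 was above Cldn8 in 6 of 12 dishes.

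The other 17 claudins were below the minimum, and 9 of them, Cldn5, Cldn9, Cldn13, Cldn14, Cldn16, Cldn17, Cldn19, Cldn22 and Cldn24, were listed at 0 in all 12 libraries. Cldn5, the claudin of endothelium, was at 0, and the 8 endothelial markers together summed to 8.05 to 22.5 normalized counts in control dishes and 8.89 to 26.3 in ablation dishes. Cldn18, which marks alveolar type I cells and stomach, had a read in 1 of 12 libraries, and the surfactant genes Sftpc and Sftpb were at 0. Cldn20, Cldn3, Cldn15, Cldn2, Cldn11, Cldn6 and Cldn10 had a few reads, and 6.76 normalized counts, for Cldn3, was the highest value of any gene under the minimum. Cldn22 lies wholly within exons of Wwc2 on the opposite strand, and its value of 0 depends on the strand being used in counting.

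The remaining tight junction genes were all tested. Below F11r came Tjp3 (ZO-3, 1299 ± 158 normalized counts per kb, SD, n = 12), Tjp1 (ZO-1, 653 ± 43) and Ocln (occludin, 359 ± 26). Tjp3 was 1.99 ± 0.25 times Tjp1 per kb. The median dish gave 1.98 and the highest 2.44, and Tjp3 was above Tjp1 in every dish.

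The desmosomal cadherins formed a cluster on chromosome 18 in which one desmoglein and one desmocollin carried most of the level. Dsg3 was 10.1 ± 1.6 times Dsg2 per kb (SD, n = 12; 7.84 to 12.5). Dsc2 was 12.4 ± 3.8 times Dsc3 (7.19 to 18.8). Dsg3 and Dsc3 are known from basal layers of stratified epithelia, and Dsg2 and Dsc2 from simple epithelia and heart, so the 2 leading genes here come from both sets. Dsg1b and Dsc1, which belong to the upper epidermis, averaged 5.19 and 4.56 per kb, and Dsg1a, Dsg1c and Dsg4 were below the minimum. Dsg1a, Dsg1b and Dsg1c are close copies of each other, and how reads were shared among them is uncertain.

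In the desmosomal plaque, Pkp1 led the plakophilins. Pkp1 was 3.20 ± 0.23 times Pkp3 (SD, n = 12), and Pkp3 was 19.5 ± 3.3 times Pkp2. Pkp2, the plakophilin of heart and simple epithelia, was the lowest gene of the plaque group at 75.0 ± 9.9 normalized counts per kb. Pkp4, also found at adherens junctions, averaged 719 ± 42 per kb. The plakins Evpl (envoplakin) and Ppl (periplakin), which are precursors of the cornified envelope and pair with each other, averaged 1881 ± 234 and 1655 ± 168.

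At adherens junctions, E-cadherin was 4.34 ± 0.43 times P-cadherin (Cdh3, 806 ± 93 normalized counts per kb; SD, n = 12), with the ratio between 3.80 and 5.30. Ctnnd1 (p120-catenin, which holds cadherins at the membrane) averaged 319 ± 19 per kb. Of the exon bases of Ctnnd1, 61.2% are also exons of Gm28635 on the same strand, a gene listed at 0. The counting rule for shared bases is not given in the sources used here, so the level of Ctnnd1 is uncertain.

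The main question was whether removal of 10 cells changed these genes in the whole organoid. No tested member passed an adjusted p-value of 0.05. In limma the library set model passed 0 of 30 members and 0% of all genes. The paired model passed 0 of 30 members and 1.09% of all genes (150 of 13792, and 8 without pair 4). At an unadjusted p-value under 0.05, 1 of 30 members (3.33%) passed in the library set model against 7.85% of all genes, and 4 of 30 (13.3%) in the paired model against 17.6%. In edgeR on the 9 libraries with recovered reads, 0 members passed after adjustment and 1 before. The members' share was below that of all genes in both limma models.

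Fold changes were small and went both ways. Of the 30 genes, 17 had a fitted value above 0 and 13 below, and the median log2 fold change was 0.018, against -0.0036 over all genes tested. With quantile normalization the split was 19 and 11. The median size of the change without its sign was 0.075 for the members and 0.073 for all genes. Ablation and control dishes overlapped for all 30 genes. Over all genes, 0.457% had groups that did not overlap. For 25 of 30 genes the 95% interval of the library set model lay inside a 1.5-fold change in either direction (82.7% of all genes). In the paired model 23 of 30 lay inside a 1.2-fold change (60.1% of all genes). The genes whose intervals reached beyond 1.5-fold in the paired model were Cldn8, Dsg1b and Dsc1, all with few counts.

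**Figure D2:**
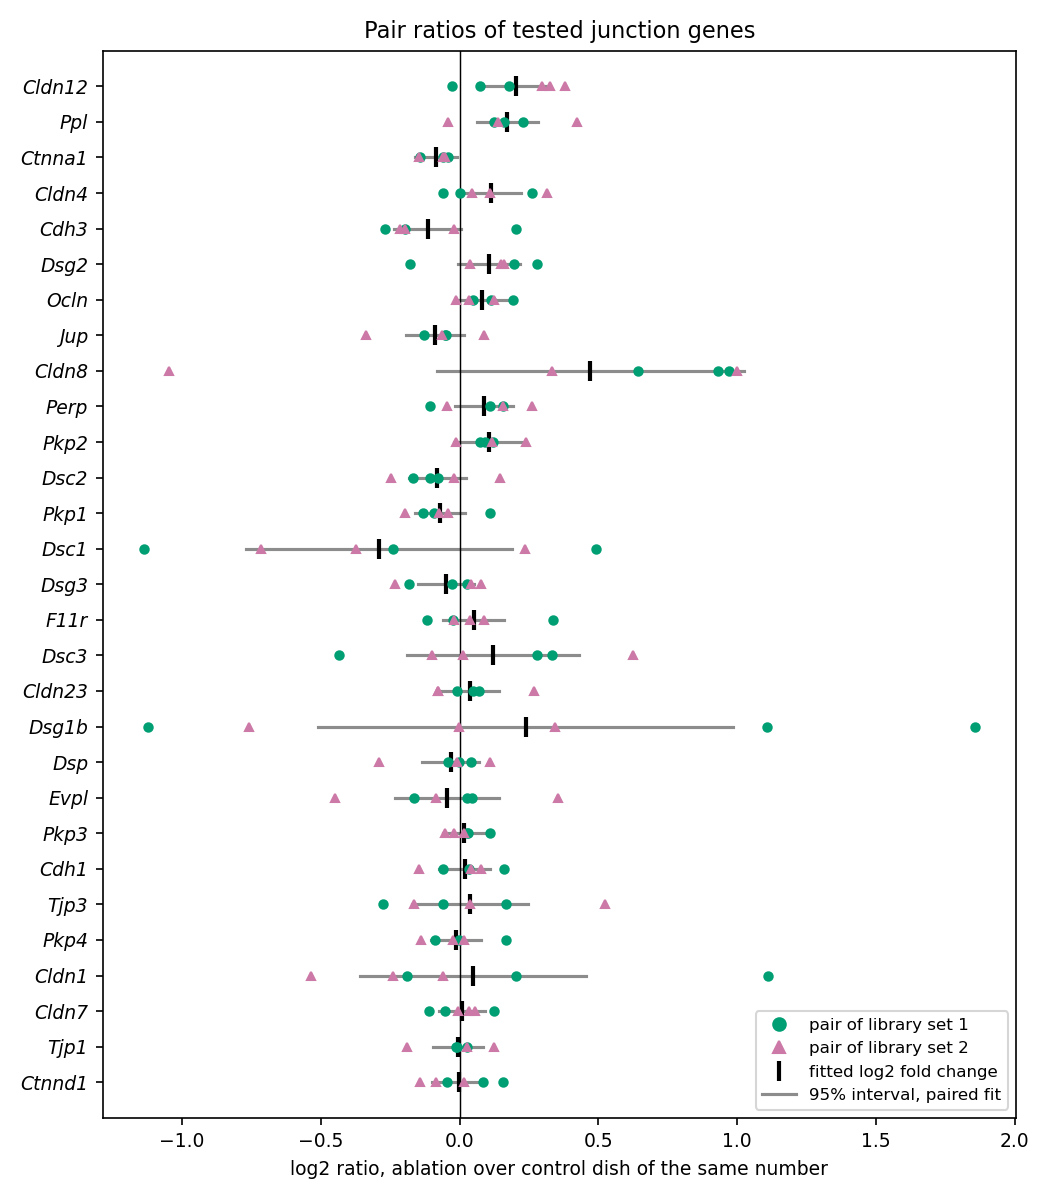
Log2 ratio of ablation over control for each of 6 dish pairs of the same number, for tested genes in order of their paired p-value. Circles are pairs of library set 1, triangles are pairs of library set 2, black ticks are fitted log2 fold changes and grey lines are 95% intervals of the paired model. Ctnna1 is the one gene with all 6 pairs on one side of 0, and Cldn8, Dsg1b, Dsc1 and Cldn1 have the widest pair ratios.

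Cldn12 (chr5:5489537-5514958, minus strand) had the smallest paired p-value. Its normalized counts were 1985, 2415 and 2702 in control dishes (lowest, median, highest) and 1946, 2823 and 3156 in ablation dishes. Pair 1 held the lowest dish of both groups, and the groups overlapped. The log2 fold change was 0.20 (SE 0.11, unadjusted p = 0.075, limma-adjusted p = 0.669) with the library set as covariate. In the paired model the SE was 0.053 and the limma-adjusted p = 0.080 (unadjusted p = 0.0019), with 5 of 6 pairs higher.

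The pairs of Cldn12 differed between library sets. Ablation over control, with 1 added to each count as in all pair ratios of single genes here, was 0.980, 1.13 and 1.05 in pairs 1, 3 and 5 of set 1, and 1.30, 1.25 and 1.23 in pairs 4, 6 and 7 of set 2. All 3 pairs of set 2 lay above all 3 of set 1. The fitted log2 fold change was 0.074 in set 1 and 0.33 in set 2. The difference between sets had an unadjusted p = 0.0057 and a limma-adjusted p = 0.469 in the paired model. It was the one member of 30 (3.33%) with an unadjusted p-value under 0.05 for this difference in the paired model, against 7.88% of all genes. In the library set model 0 of 30 did, against 1.67%. After adjustment in limma 0 of 30 members passed in either model, against 0% of all genes and, paired, 0.00725%. In set 2 alone the paired model gave a limma-adjusted p = 0.026 for Cldn12, and without pair 1 it was 0.035. The counts of all genes that passed in these settings are not given here, so how particular this is to Cldn12 cannot be read. The controls of set 2 are the 3 dishes whose titles contain the word ablation.

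All 6 tested claudins had fitted values above 0, also with TMM scaling and quantile normalization, and none passed. Cldn4 ranged over 7703, 9291 and 13982 normalized counts in control dishes (lowest, median, highest) and 7381, 10604 and 13993 in ablation dishes. Dish 5 was highest and dish 1 lowest in both groups, so its spread lay between dish numbers rather than between groups. Part of it lay within a passage, since controls 4 and 5, both of P2+15, held 10451 and 13982. Its log2 fold change was 0.11 (SE 0.17, limma-adjusted p = 0.893), with a 95% interval of -0.25 to 0.47. In the paired model the SE was 0.050 and the limma-adjusted p = 0.264, with 5 of 6 pairs higher and pair ratios of 0.958 to 1.24.

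Cldn8 had the largest fitted value, 0.47, from very few reads. Control dishes held 6.14, 24.9 and 33.8 normalized counts (lowest, median, highest) and ablation dishes 13.0, 28.1 and 65.3. In 5 of 6 pairs the ablation dish was higher, by up to 2.00-fold with 1 added to each count, and in pair 6 it was lower, at 0.484. The added count pulls ratios this low in counts toward 1. The 95% interval, -0.54 to 1.48 on the log2 scale, leaves the direction unsettled (limma-adjusted p = 0.831). The summed level of all claudins per kb was 7540 to 11538 in control and 7322 to 11458 in ablation dishes, with 4 of 6 pairs higher.

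**Figure D3:**
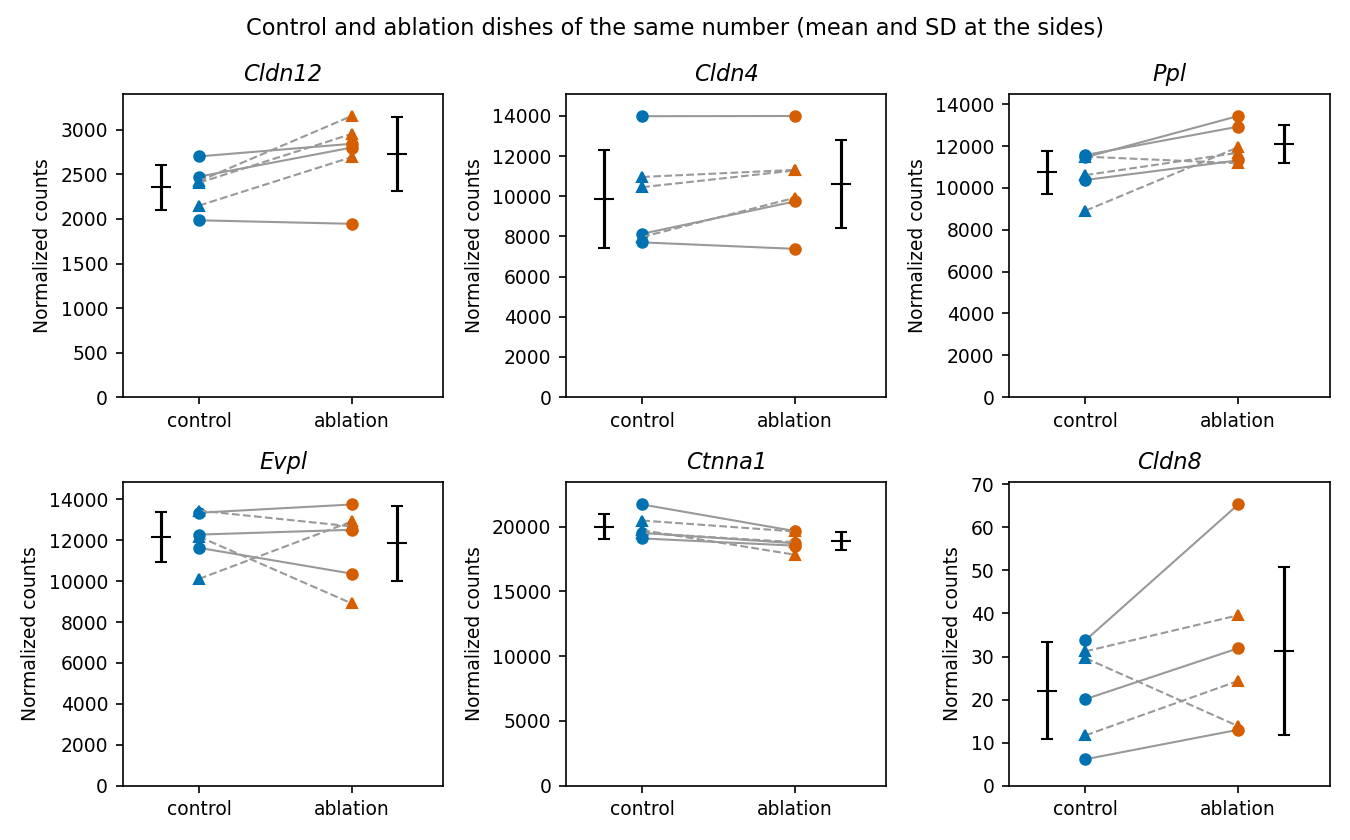
Normalized counts of 6 junction genes in control (blue) and ablation (orange) dishes, with lines joining dishes of the same number (circles and solid lines for library set 1, triangles and dashed lines for set 2) and the mean ± SD of each group (n = 6) at the sides. Ctnna1 is lower after ablation in every pair, Cldn12 and Ppl are higher in 5 of 6, and the differences between numbers in Cldn4 exceed those within pairs.

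Ppl (chr16:5086291-5132421, minus strand) was the one member with an unadjusted p-value under 0.05 in both models. Its normalized counts were 8910, 11037 and 11571 in control dishes (lowest, median, highest) and 11176, 11811 and 13435 in ablation dishes. The groups overlapped, and pair 4 was the one pair in which ablation was lower (ratio 0.972). The other pair ratios ran from 1.09 to 1.34. The log2 fold change was 0.17 (SE 0.065, unadjusted p = 0.019, limma-adjusted p = 0.604). In the paired model the SE was 0.050 (unadjusted p = 0.0045, limma-adjusted p = 0.112). Library sets 1 and 2 gave 0.171 and 0.173.

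Evpl, its partner in the cornified envelope, showed no such difference. Control dishes held 10108, 12226 and 13447 normalized counts (lowest, median, highest) and ablation dishes 8910, 12592 and 13746, a log2 fold change of -0.046 (SE 0.10). The ratio of Evpl to Ppl per kb was 1.22 ± 0.083 in control and 1.06 ± 0.12 in ablation dishes (SD, n = 6). It was lower in the ablation dish of all 6 pairs, at 0.752 to 0.953 of the control dish. The exact two-sided sign-flip test over pairs gave p = 0.0312, the smallest it can give with 6 pairs, and an adjusted p of 0.100 over the 8 ratios compared.

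The other 7 within-family ratios were Dsg3 to Dsg2, Dsc2 to Dsc3, Pkp1 to Pkp3, Pkp3 to Pkp2, Cldn4 to Cldn7, Cdh1 to Cdh3 and Tjp3 to Tjp1. Their exact sign-flip p-values were 0.0625 to 0.656 and adjusted values 0.100 to 0.656. With 6 pairs and 8 ratios no single ratio can pass after adjustment, so these values do not show that the ratios were the same. The ratio of Cdh1 to Cdh3 was 4.14 ± 0.29 in control and 4.55 ± 0.47 in ablation dishes, higher in 5 of 6 pairs. The ratio of Dsg3 to Dsg2 was 10.6 ± 1.5 in control and 9.58 ± 1.64 in ablation dishes, higher in 1 of 6 pairs. The choice of these ratios was made with earlier values of the data known.

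Ctnna1, which links cadherins to actin, was the one member whose 6 pairs all lay in one direction. Its normalized counts were 19085, 19619 and 21705 in control dishes (lowest, median, highest) and 17828, 18756 and 19652 in ablation dishes. The groups overlapped, since 3 control dishes lay below the highest ablation dish. Pair ratios were 0.904 to 0.971. Of the 30 members, 1 (3.33%) was lower in all 6 pairs and 0 higher, against 4.63% and 5.17% of all genes. The log2 fold change was -0.084 (SE 0.045, limma-adjusted p = 0.687), and in the paired model the SE was 0.035 (unadjusted p = 0.032, limma-adjusted p = 0.234). The 95% interval of the paired model was -0.160 to -0.0085.

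For the leading or lowest genes of the roles not yet described, the groups overlapped as well. Dsp ranged over 48713, 55049 and 62451 normalized counts in control dishes (lowest, median, highest) and 44280, 54055 and 61249 in ablation dishes. The ranges were nearly the same, and the log2 fold change was -0.033 with a 95% interval of -0.19 to 0.12. Dsg3 held 36784, 38708 and 40074 in control and 33251, 38309 and 41200 in ablation dishes, and the 2 lowest dishes were ablations 1 and 4. Its log2 fold change was -0.050 (-0.18 to 0.076). F11r held 9316, 11772 and 13486 in control and 10432, 12037 and 13145 in ablation dishes, and the lowest value, that of control 3, set the wider control range. Its log2 fold change was 0.050 (-0.12 to 0.22).

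Among the lowest genes, Ocln held 1342, 1439 and 1672 normalized counts in control dishes (lowest, median, highest) and 1450, 1558 and 1657 in ablation dishes, higher in 5 of 6 pairs. The fitted log2 fold change of 0.082 had an interval of -0.034 to 0.20. Pkp2 held 308.0, 400.4 and 440.5 in control and 334.7, 422.0 and 477.9 in ablation dishes, also higher in 5 of 6 pairs. The log2 fold change was 0.10 (-0.067 to 0.28). Ctnnd1 held 2232, 2343 and 2405 in control and 2024, 2372 and 2555 in ablation dishes, with a log2 fold change of -0.0027 (-0.11 to 0.11). For Ctnnd1 the ablation dishes spread wider than the controls on both sides.

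Dsg1b held 9.21, 17.0 and 30.9 normalized counts in control dishes (lowest, median, highest) and 10.9, 14.2 and 50.7 in ablation dishes. With 1 added to each count, pair 1 was at 0.459 and pair 3 at 3.62, and 3 of 6 pairs were higher. The fitted log2 fold change was 0.24, and with so few counts the 95% interval ran from -0.51 to 0.98. The remaining members had log2 fold changes of -0.29 (Dsc1) to 0.12 (Dsc3), with limma p-values that did not pass in either model.

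Other genes that act at junctions were read from 4 lists. In the library set model 0 genes of these lists passed an adjusted p of 0.05, and in the paired model 3 did, where 1.09% of all genes passed. At an unadjusted paired p-value under 0.05, 9 of 23 tight junction partners, 4 of 18 adherens junction partners, 3 of 17 desmosome and cornified envelope partners and 1 of 17 transcription factors passed, against 17.6% of all genes. Magi3, a scaffold of tight junctions, was the one of 23 tested tight junction partners that rose in the paired model. Control dishes held 956.8, 1262 and 1337 normalized counts (lowest, median, highest) and ablation dishes 1283, 1441 and 1520. Its log2 fold change was 0.25, higher in 6 of 6 pairs (limma-adjusted p = 0.537 and, paired, 0.033). The paired model no longer passed it without pair 1, 3, 4 or 5, with adjusted p-values of 0.066, 0.089, 0.096 and 0.082. Over the list, 10 genes had fitted values above 0 and 13 below, with a median of -0.016.

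Lmo7, which connects the afadin-nectin and cadherin-catenin systems, was the one of 18 tested adherens junction partners that rose in the paired model. It held 7050, 7931 and 9505 normalized counts in control dishes (lowest, median, highest) and 9013, 9904 and 10555 in ablation dishes. The log2 fold change was 0.29, higher in 6 of 6 pairs (limma-adjusted p = 0.440 and, paired, 0.021). Without pair 3 or pair 4 the paired values were 0.053 and 0.068. Of this list 7 genes lay above 0 and 11 below, with a median of -0.021. Of the 17 tested desmosome and cornified envelope partners, 0 passed in either model, 12 lay above 0 and 5 below, and the median was 0.049. The smallest p-value there was that of Lad1 (ladinin), with 8956 to 11788 normalized counts in control and 7661 to 9838 in ablation dishes (log2 fold change -0.18, paired limma-adjusted p = 0.062).

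Of 17 tested transcription factors known to act on junction genes, Trp63 rose in the paired model. The gene encodes p63, a regulator of desmosomal genes and of Perp. It held 6443, 7645 and 8928 normalized counts in control dishes (lowest, median, highest) and 8400, 9873 and 11436 in ablation dishes, higher in 6 of 6 pairs. The log2 fold change was 0.39 (limma-adjusted p = 0.187 and, paired, 0.0082; 0.054 without pair 4). For Perp, 4 of 6 pairs were higher in the ablation dish. Its log2 fold change was 0.088, and the 95% interval was -0.14 to 0.32. The list as a whole had 13 genes above 0 and 4 below, with a median of 0.067, while 48.5% of all genes lay above 0 with a median of -0.0036.

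Summed markers of other cell types overlapped between groups for each list. The summed level of 10 airway basal markers was 542929 to 674774 normalized counts in control and 544821 to 708343 in ablation dishes, with 0 of them at 0. Airway secretory markers summed to 113594 to 174148 in control and 101662 to 202863 in ablation dishes. Most of this was Cbr2, Cyp2f2 and Krt8, and Scgb1a1 held 0 to 9.65 normalized counts over all dishes. Multiciliated markers summed to 10692 to 15493 and 10350 to 14196. Nearly all of that was Tubb4b, at 10542 to 15295 in control and 10168 to 14053 in ablation dishes, while Foxj1 held 2.92 to 18.1. The 12 squamous and hillock markers summed to 126463 to 161766 and 118994 to 152141. Of the 7 tested secretory markers 2 lay above 0 and 5 below, with a median log2 fold change of -0.16. One of them, Aldh1a1, an enzyme of retinoic acid synthesis, rose in the paired model. It held 2015, 2836 and 3812 normalized counts in control dishes (lowest, median, highest) and 2495, 3980 and 5056 in ablation dishes, a log2 fold change of 0.42, higher in 6 of 6 pairs (limma-adjusted p = 0.530 and, paired, 0.0018). With a pair left out the paired values were 0.0028 to 0.010. Trp63, described above, is also among the 10 tested basal markers, of which 4 lay above 0 and 6 below, with a median of -0.077. No gene of the other marker lists passed in limma. Alveolar type I markers, with Cldn18 among them, summed to 80909 to 92586 in control and 79828 to 92882 in ablation dishes. Most of this was Aqp5 and Hopx, while Ager held 7.99 to 26.9 normalized counts over all dishes and Cldn18 was near 0. Alveolar type II markers summed to 1662 to 2521 and 1448 to 2153, nearly all of it Abca3 and Etv5. Immune markers summed to 216 to 369 and 211 to 363, with Adgre1 at 0, and stromal markers to 227 to 456 and 195 to 498, with Thy1 at 0.

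The spread between dish numbers was compared with the spread between treated and control dishes of the same number, by the mean and the difference of each of the 6 pairs. The highest pair mean was 1.30 times the lowest at the median member, the same as for all genes (1.30). For 15 of 30 members the pair means spread more than the pair differences, against 39.8% of all genes. The mean of a pair spreads less than its difference even where dish numbers do not differ. Equal spread is therefore not the neutral point, and the count does not show that dish numbers differed in only these members. Besides the faint genes Cldn8, Cldn1 and Dsg1b, the widest range was that of Dsc3, 2.22-fold, followed by Cldn4 with 1.85-fold, while Ctnna1 was narrowest with 1.10-fold.

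Dsc3 was separated by passage. Its normalized counts were 3101 and 3908 in control and ablation dish 1, and 3830 and 2837 in dish 3, the 4 dishes of passage P2+14. In the 8 dishes of later passages they ran from 1422 to 2563. The 4 dishes lay above the other 8. Cldn23 and Pkp2 were separated in the other direction, with the 4 dishes of passage P2+14 at 1329 to 1398 and 308.0 to 369.5, below all later ones. In all, 3 of 30 members (10%) had passage P2+14 apart from the rest, against 4.59% of all genes, and dishes at P2+14 were all in library set 1.

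Other members were set apart by another passage or by library set. F11r was higher in the 4 dishes of passage P2+15 (12432 to 13486 normalized counts) than in the other 8 (9316 to 12237), the one member of 30 against 1.07% of all genes, and these dishes come from both library sets. Jup and Pkp3 did not overlap between library sets (2 of 30, against 2.23% of all genes). Jup held 19638 to 23341 normalized counts in set 1 and 14646 to 18561 in set 2, and Pkp3 held 5207 to 5742 and 4701 to 5196. Passage and library set overlap in part. Both dishes of pair 5, in set 1 at P2+15, lay with the dishes of set 2 and not with those of P2+14 for Dsc3, Cldn23 and Pkp2.

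**Figure D4:**
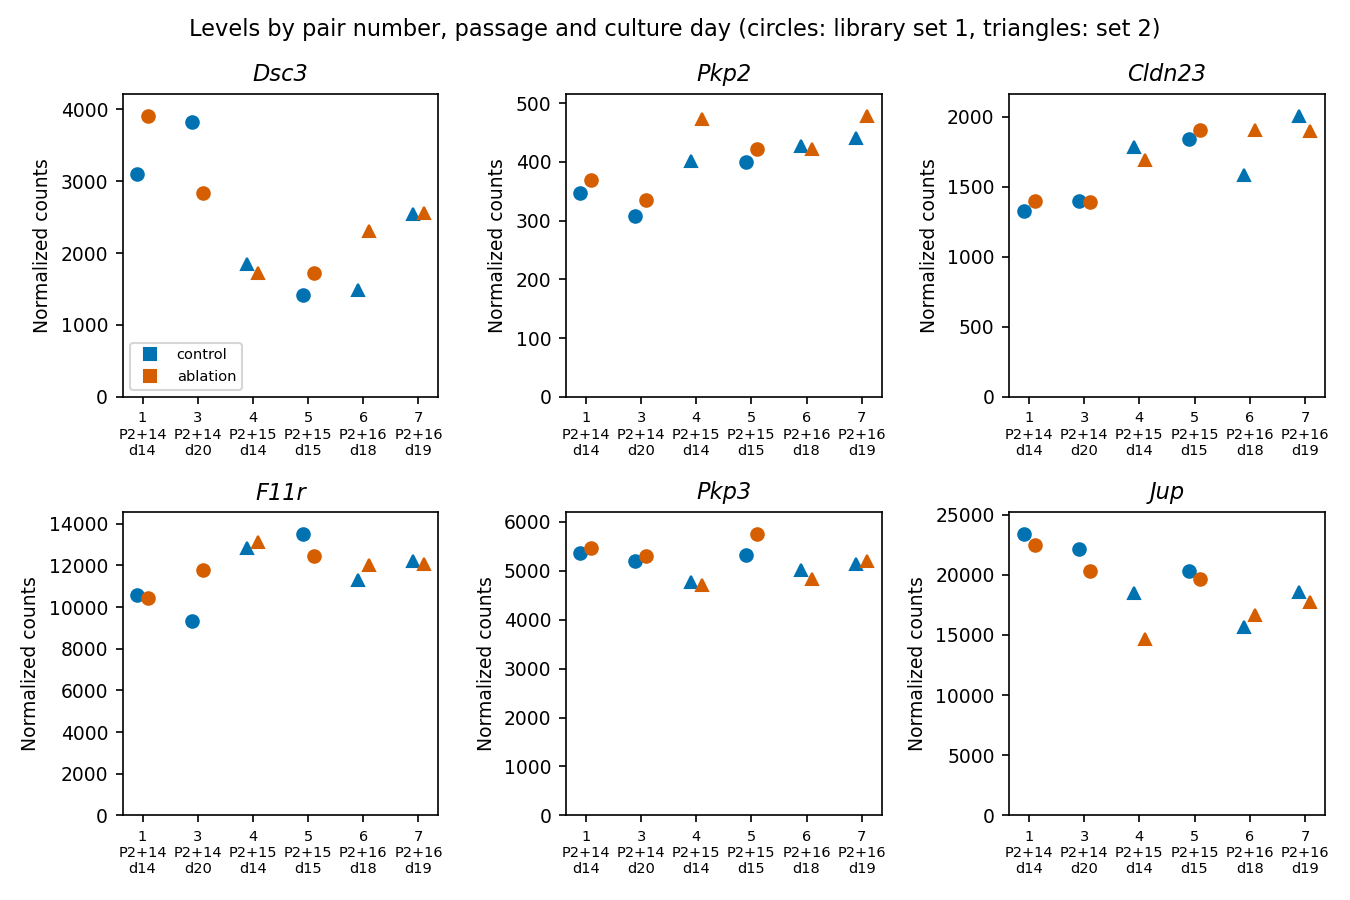
Normalized counts of Dsc3, Pkp2, Cldn23, F11r, Pkp3 and Jup in each dish by pair number, passage and culture day, with control dishes in blue, ablation dishes in orange, circles for library set 1 and triangles for library set 2. Dsc3 is high and Pkp2 and Cldn23 are low in the 4 dishes of passage P2+14, F11r is highest at P2+15, and Jup and Pkp3 are lower in all triangles than in all circles.

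Culture day was compared in the control dishes, 3 of day 18 to 20 (dishes 3, 6 and 7) against 3 of day 14 to 15 (dishes 1, 4 and 5), with library set in the model. No member and no gene passed after adjustment in limma. At an unadjusted p-value under 0.05, 2 of 30 members (6.67%) passed, against 7.04% of all genes. The fitted values leaned to lower levels in late dishes, in 23 of 30 members against 49.7% of all genes, with a median of -0.067 on the log2 scale against 0.0011. With TMM scaling and quantile normalization the counts were 21 and 22. In the ablation dishes of the same cultures 14 of 30 members were lower in late dishes, against 49.1% of all genes, with a median of 0.017. Early and late controls did not overlap for 3 of 30 members (10%; Dsg1b, Ppl and Cldn7), against 10.8% of all genes.

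Dsg1b held 30.9, 19.1 and 23.0 normalized counts in early controls 1, 4 and 5 and 9.21, 14.8 and 10.5 in late controls 3, 6 and 7. The late controls were lower by 1.01 on the log2 scale (the fitted value was -1.01, SE 0.34, unadjusted p = 0.020, limma-adjusted p = 0.689). In the ablation dishes of the same cultures the late dishes were not lower, with a fitted value of 0.39. Cldn8 held 33.8, 31.2 and 20.1 in early and 6.14, 29.6 and 11.7 in late controls, a fitted value of -1.32 (SE 0.48, limma-adjusted p = 0.689), and the ablation dishes gave -1.40. For Cldn8, control 6 lay among the early dishes.

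Ppl held 11463, 11493 and 11571 normalized counts in early controls 1, 4 and 5 and 10378, 8910 and 10611 in late controls 3, 6 and 7, a fitted value of -0.20 (SE 0.083, limma-adjusted p = 0.689). In ablation dishes the fitted value was -0.070. As a sum, markers of squamous and hillock cells were lower in late controls. The 12 genes, none at 0 in all libraries, summed to 155699 to 161766 normalized counts in early and 126463 to 149346 in late controls. Krt6a, the largest term, overlapped between early controls (79994 to 98821) and late controls (79647 to 90481). In ablation dishes of the same cultures the lowest sum, 118994, was in early dish 4 and the highest, 152141, in late dish 6. The summed level of the transcription factor list was 75336 to 78776 in early and 65727 to 72163 in late controls. In ablation dishes of the same cultures it ran from 76780 to 81423, and early and late dishes overlapped. The part of these factors in the difference was not tested. Passage P2+15 was present only among early and P2+16 only among late dishes.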

How the data were processed

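Reads were aligned by the authors to the GENCODE mouse genome GRCm38.p6 in an nf-core workflow. The authors made the deposited signal values, normalized counts, by dividing the read counts of a library by its DESeq2 size factor. The counting rule is not given in the sources used here. The deposited table also holds the authors' own comparison, with log2 fold changes, score columns (standard errors and Wald statistics) and p-values, which were not used.

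In the 12 columns, 100% of values were whole multiples of 1 step (tolerance 0.02). An automatic rule accepted this for 9 libraries, whose recovered reads were tested as an alternative. For ablation 3, ablation 4 and control 4, with steps near 1, it did not, so limma was used throughout. Genes with at least 10 normalized counts in 6 libraries were tested in R 4.3.3 with limma 3.58.1 on log2(value + 1), with trended, robust eBayes and Benjamini-Hochberg adjustment over 13792 genes at a threshold of 0.05. The methods name a batch without defining it, and the library set was taken for it. edgeR 4.0.16 quasi-likelihood tests were run on the 9 libraries. Scripts were tested on simulated data.

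After the group means were subtracted, same-numbered dishes correlated across genes in each pair (r = 0.62 in pair 1, 0.49 in pair 3, 0.21 in pair 4, 0.32 in pair 5, 0.38 in pair 6 and 0.33 in pair 7). The labels give them a shared passage, day and date, so the numbers were taken to pair the dishes. Family ratios were tested by exact sign flips over pairs. These flips and the paired model treat the 6 pairs as independent, though by their titles numbers of the same passage share a starting day. The members, lists and tests were chosen with earlier results of these data known. Members were named if they had an unadjusted p-value under 0.05 in any comparison, moved one way in all 6 pairs, or were the tested member with the highest or lowest mean normalized count of their role. Of the lists of junction partners and transcription factors, genes that passed in either model and the gene with the smallest paired p-value were named. Perp, Cldn7, Evpl, Dsc3, Cldn23, F11r, Jup, Pkp3 and the secretory marker Aldh1a1 were given dish values after these were seen. The values of 1 tight junction gene and 1 immune marker are not reported here, though both are included in the counts. Exon overlaps were read from GENCODE and promoter windows from RefSeq (GRCm38.p6).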

Additional observations from a re-analysis of the deposited data

Results flagged for a closer look

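In each group of 6 dishes, the highest and the lowest value of each tested junction gene was compared with its nearest neighbour by Dixon's test, 60 groups in all. Chance marks about 1 group in 20 (5%), and 2 groups were marked. Perp was highest in ablation dish 1, with 71344 normalized counts, and the next ablation dish held 55387. Control dish 1 was also the highest control for Perp, with 63994. Cldn7 was lowest in ablation dish 6, with 3547 normalized counts against 3902 in the next dish, and control dish 6 was the lowest control, with 3560.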

How the results depend on the processing

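The count of junction genes that passed for ablation was 0 in the library set model and in 30 of 33 alternatives. It was 2 with the replicate block and no filter on low counts (Cldn12, adjusted p = 0.024, and Ppl, 0.026), 1 in library set 2 alone with the replicate block (Cldn12), and 0 to 1 when one pair was left out with the replicate block (Cldn12 without pair 1, adjusted p = 0.035). Over all genes, the paired count of 150 was 356 without the filter, 90, 8, 77 and 106 without pairs 3, 4, 5 and 6, and 0 with plain eBayes. The counts without pair 1 and in library set 2 alone are not given here, so the Cldn12 results of those settings have no share over all genes beside them. Of the 4 lists of junction partners and transcription factors, the pairing passed 3 genes (Magi3, Lmo7 and Trp63) where the library set model passed 0. With plain eBayes in the paired model these 3 had adjusted p-values of 0.163, 0.163 and 0.121, and the marker Aldh1a1 had 0.121. Members with all pairs in one direction numbered 2 to 5 when one pair was left out, against 1. Leaving out a pair can only keep or raise this count. The share over all genes was not computed there, so the rise shows nothing particular to these members. The sign changed for Dsp (0.038 with quantile normalization, 0.057 in edgeR, -0.061 to 0.018 with a pair left out), Ctnnd1 (0.0022 with quantile normalization, 0.065 in library set 1 alone, 0.026 in edgeR, -0.035 to 0.025 with a pair left out, with 0.0057 and 0.014 without pairs 3 and 4 also under the replicate block), Dsg1b (-0.14 in library set 2 alone, -0.086 to 0.51 with a pair left out) and F11r (-0.0072 to 0.084 with a pair left out), none of which passed; the cause was not tested. The late minus early value of Dsg1b was -1.01 in control and 0.39 in ablation dishes. Counts for culture day and for the library set difference were 0 in all alternatives run. With 6 dishes a group, the faint members Cldn1, Cldn8, Dsg1b and Dsc1 had the widest intervals.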
